A study of Mus musculus with 32 samples.

Results

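The 10 genes described here are genes of the integrated stress response in mouse liver: the transcription factors Atf4, Ddit3 (CHOP) and Atf3, the pseudokinase Trib3, the amino acid synthesis genes Asns and Psat1, the glutathione-degrading enzyme gene Chac1, the sestrin Sesn2 and the hormones Fgf21 and Gdf15. They were taken by gene symbol from 2 tables of raw RNA-seq counts, 1 for each sex, that list 41585 gene entries each. All 10 were listed once in each table and all 10 passed the filter on low counts in both sexes. On ND, no library exceeded 17 counts for Atf3, 10 for Psat1 or, in females, 7 for Asns. These genes passed the filter through CDAHFD libraries, where they were high, so their entry to the test depended on that diet. Fgf21 was also low in most ND libraries.

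Liver RNA came from C57BL/6 mice (the J substrain, per the study's methods) that were wildtype (WT) or Cyp2b-null, the latter lacking the cytochrome P450 genes Cyp2b9, Cyp2b10 and Cyp2b13 after CRISPR/Cas9 deletion on that background. WT mice were bought from a supplier, while the Cyp2b-null mice came from the investigators' own line, so the deletion and the origin of the mice cannot be told apart. From 10 weeks of age, females and males of both genotypes were kept for 8 weeks on normal chow (ND) or on CDAHFD, a high-fat diet that is choline-deficient and L-amino acid-defined. CDAHFD held 62% fat and only 0.1% methionine, and it is used to produce fatty liver with inflammation and fibrosis. Each of the 8 groups had 4 libraries, 32 in all. The 2 diets differed in composition beyond choline, fat and methionine, so no single nutrient can be named in what follows.

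The integrated stress response begins when kinases that sense amino acid shortage, endoplasmic reticulum (ER) stress, heme shortage or viral RNA phosphorylate the translation factor eIF2. General translation then falls while the mRNA of Atf4 is translated more efficiently, so ATF4 protein can rise with no rise of its mRNA, and mRNA counts do not measure that protein. ATF4 and its partners raise genes for amino acid synthesis and transport, feedback regulators such as Trib3, and the secreted hormones FGF21 and GDF15, which act on metabolism and appetite and are known to be made by stressed liver.

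ATF4 binds composite C/EBP-ATF elements, and the promoters of the 10 genes were searched for the core of that element, TGATGNAA, on both strands, from 250 bases before to 50 bases after each annotated start. Windows from RefSeq (build GRCm38.p6) were found for all 10 genes, 12 windows in all since Gdf15 and Psat1 have 2 each. The core was present in 5 of the 10 genes, Atf3, Trib3, Asns, Chac1 and Fgf21, and in 3.97% of all 32851 promoter windows of the same length (4.51% of 27025 genes). These 5 matches are shown, in 30 bases each. The genes were chosen as a stress response set that includes known targets of ATF4. A share above that of all genes is therefore no independent support. Each is written 5′ to 3′ on the strand of its gene, with the match in capitals, as TGATGNAA or as its reverse complement.
Atf3: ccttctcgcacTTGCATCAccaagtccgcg
Trib3: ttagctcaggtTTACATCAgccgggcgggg
Asns: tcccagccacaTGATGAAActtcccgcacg
Chac1: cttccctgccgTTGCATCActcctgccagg
Fgf21: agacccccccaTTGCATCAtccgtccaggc
The Atf3 stretch lies at chr1:191183425-191183454, with its match from -110 to -103 relative to the start of the transcript. The Asns stretch lies at chr6:7693214-7693243 (match -23 to -16), the Chac1 stretch at chr2:119351038-119351067 (match -193 to -186) and the Fgf21 stretch at chr7:45615611-45615640 (match -139 to -132). The Trib3 stretch lies at chr2:152344028-152344057, and its match, from +14 to +21, is inside the transcript. Asns carries the core on the strand of its gene, and the other 4 carry it on the opposite strand. The cAMP response element TGACGTCA, which reads the same on both strands and does not overlap the other motif, was found in 0 of the 10 genes and in 1.79% of all promoter windows. A match in these windows is a description of the letters and no measure of binding, which was not assayed.

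Library totals ran from 2906411 to 10166959 counts. The deleted genes were in keeping with the genotype labels: Cyp2b10 had 190 to 391 counts per library in ND-fed WT females and 33 to 97 in ND-fed WT males against 1 to 9 in ND-fed Cyp2b-null mice, and Cyp2b9 had 118 to 1151 counts in CDAHFD-fed WT mice of both sexes against 2 to 7 in CDAHFD-fed Cyp2b-null mice. Cyp2b13 had 470 to 2351 counts in WT females against 0 to 1 in Cyp2b-null females. In males some counts were too low in WT mice to tell the genotypes apart. These were Cyp2b9 on ND (0 to 15 in WT, 4 to 18 in Cyp2b-null), Cyp2b10 on CDAHFD (0 to 7 and 0 to 6) and Cyp2b13 on ND (0 in WT, 0 to 2 in Cyp2b-null). The whole liver was sequenced, so fewer cells of a type and less RNA per cell cannot be told apart, and the makeup of the tissue moved with diet in both sexes and genotypes. Of 6 hepatocyte markers 3 to 5 were lower on CDAHFD, and their summed level was 104000 to 197000 CPM (counts scaled to a common library total) in ND libraries and 52700 to 116000 CPM in CDAHFD libraries. Of 6 macrophage markers 5 were higher on CDAHFD in each comparison (summed level 158 to 622 CPM on ND and 619 to 1460 CPM on CDAHFD), and of 6 stellate cell markers 4 or 5 were higher (43.8 to 98.3 CPM against 278 to 532 CPM). Cholangiocyte markers (2 or 3 of 5 higher) and neutrophil markers (2 of 2 tested higher, with Ly6g at 0 in every library of 8 groups) rose as well, and the part of these shifts in the results that follow was not tested.

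On CDAHFD, the stress response genes ranged from many-fold rises to no called change. Atf3, Trib3 and Psat1 rose in WT and Cyp2b-null mice of both sexes, as did Gdf15, and Asns rose in all but Cyp2b-null females. Fgf21 rose in WT mice of both sexes, Chac1 and Sesn2 rose in males, and Ddit3 rose in Cyp2b-null females. Atf4 mRNA itself was called in 0 of the 4 comparisons. By edgeR's quasi-likelihood test, a gene being called at a Benjamini-Hochberg adjusted p under 0.05 over all genes tested, 6 of the 10 were higher on CDAHFD in WT females, against 13.9% of all 13226 genes, and 0 were lower, against 10.2%. In Cyp2b-null females 5 were higher (all genes 16.9%) and 0 lower (all genes 13.9%). In WT males 8 were higher against 18% of all 13460 genes and 0 lower against 15%, and in Cyp2b-null males 7 were higher against 20.3% and 0 lower against 17.1%. The median log2 fold change of the 10 genes was 1.24 in WT females, 1.22 in Cyp2b-null females, 1.40 in WT males and 1.67 in Cyp2b-null males, where that of all genes tested was between -0.02 and 0.03. The 10 genes were chosen with earlier results of these data known. Atf3, Psat1 and, in females, Asns also entered the test through the CDAHFD libraries where they were high. These counts and medians therefore describe the set and are no independent support for a response of it. The count in WT males was 5 without ND-fed WT male replicate 2 and 5 without CDAHFD-fed WT male replicate 3.

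The ND and CDAHFD libraries of a gene did not overlap for 5 of the 10 genes in WT females (25.8% of all genes tested), 6 in Cyp2b-null females (30.6%), 6 in WT males (28.4%) and 7 in Cyp2b-null males (36.8%). The limits from the choice of genes and the filter hold for these counts too. Scaling by library size alone, in place of TMM factors, raised the median log2 fold change of all genes to 0.32 in WT females, 0.28 in Cyp2b-null females, 0.37 in WT males and 0.36 in Cyp2b-null males. Changes are given under TMM, which assumes that most genes do not change. A median near 0 under TMM is thus built in and cannot decide between the scalings, and which is closer to the truth was not tested.

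**Figure D1:**
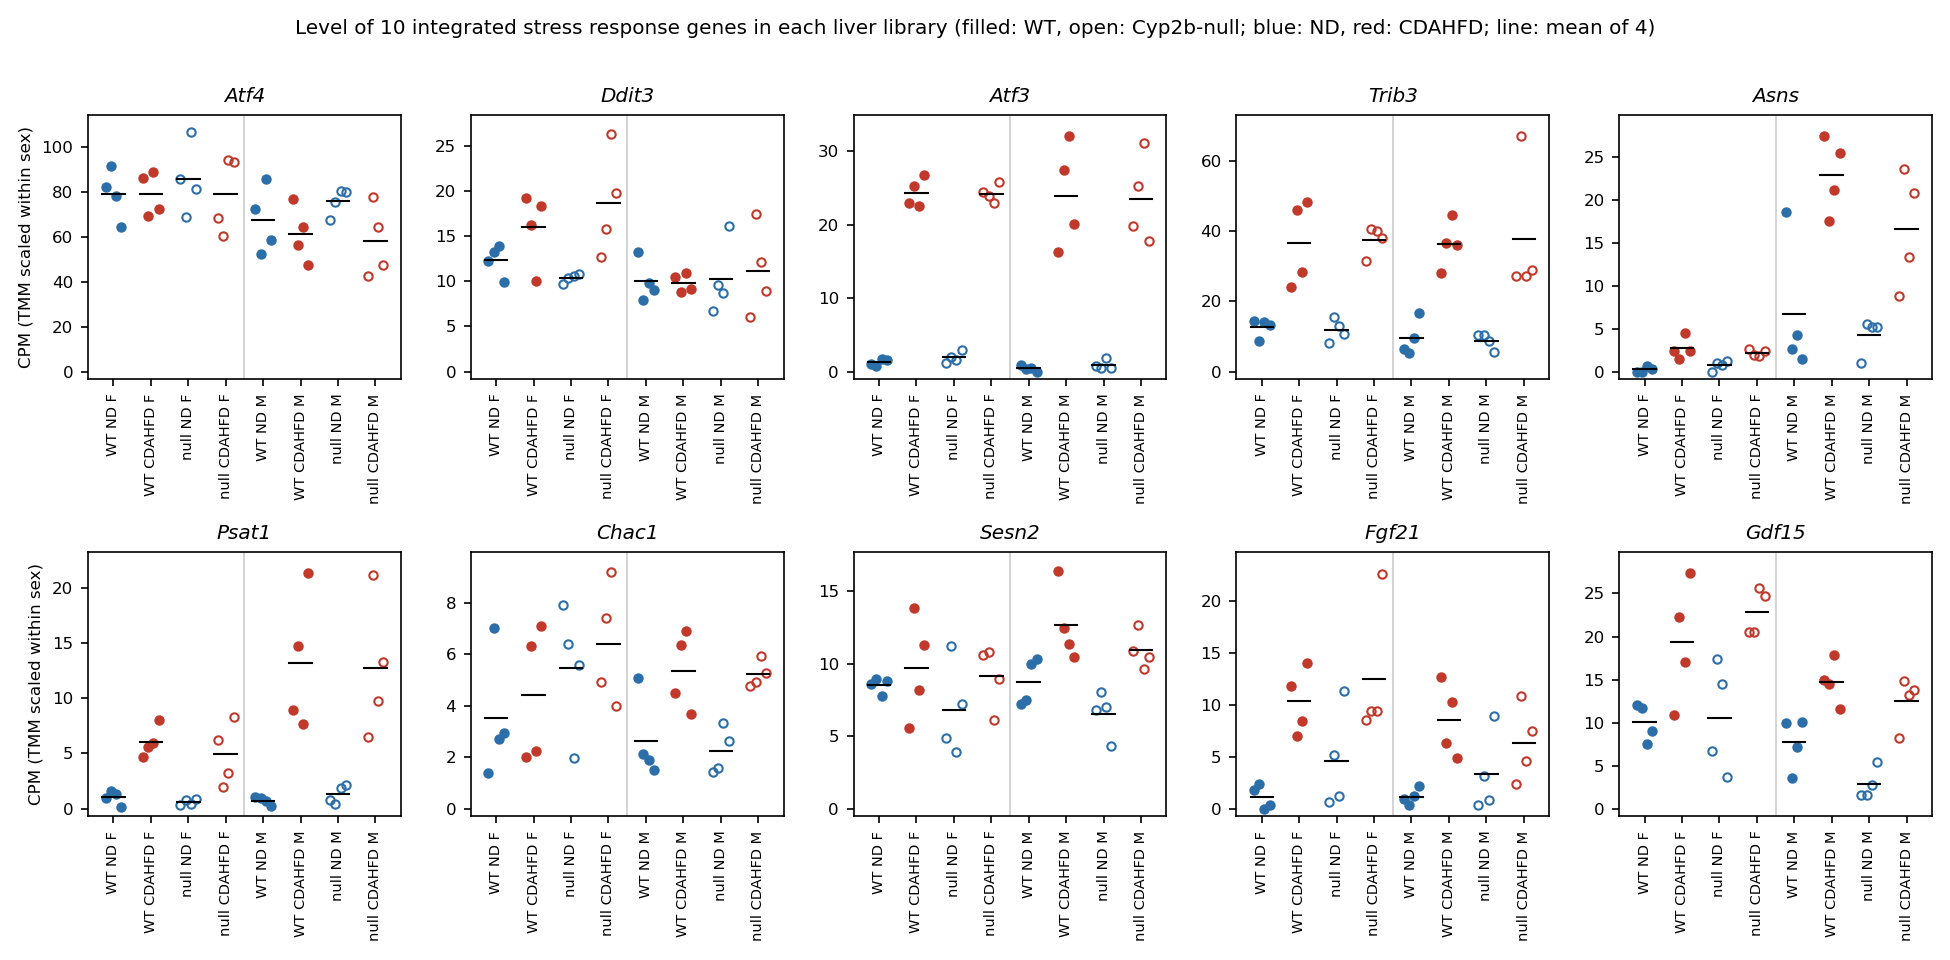
Level of each of the 10 genes in CPM (linear vertical axes from 0, scaled with TMM factors within each sex) in every library of the 8 groups, with 4 points per group and a line at their mean. Atf3 sits between 16.2 and 32.01 CPM in all 16 CDAHFD libraries and at 2.87 CPM or less in all 16 ND libraries, while the Atf4 points of the diets overlap in every sex and genotype, least so in Cyp2b-null males.

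**Figure D2:**
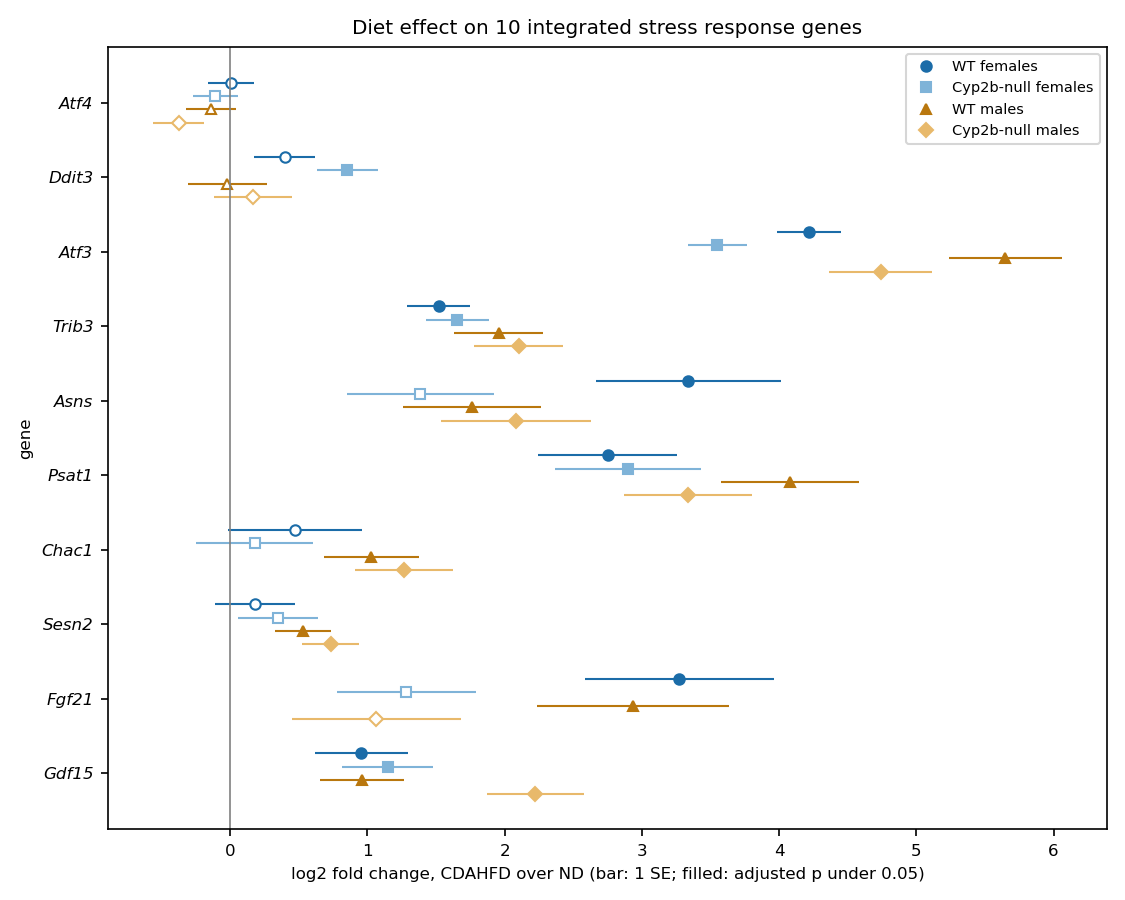
Log2 fold change of each gene, CDAHFD over ND, with bars of 1 standard error (SE), in WT and Cyp2b-null females and males, filled where edgeR's adjusted p was under 0.05. Atf3 is farthest to the right in each of the 4 comparisons (3.55 to 5.65), and Atf4 lies between -0.38 and 0.01.

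Among the transcription factors, Atf4 was the most abundant of the 10 genes per length in all 8 groups, with group means from 24.6 to 36.3 CPM per kilobase of exon. Its level was 79.2 ± 11.3 CPM (SD, n = 4) in ND-fed and 79.2 ± 9.76 CPM in CDAHFD-fed WT females. In Cyp2b-null males it was 76.0 CPM on ND (67.7, 75.6, 80.3 and 80.2 CPM) and 58.1 CPM on CDAHFD (42.7, 78.0, 64.2 and 47.5 CPM), with 3 of the 4 CDAHFD libraries below all 4 ND libraries. The log2 fold change of Atf4 in Cyp2b-null males was -0.38 ± 0.18 (SE), with an adjusted p of 0.115 by edgeR, and without CDAHFD-fed Cyp2b-null male replicate 2 it was -0.55 with an adjusted p of 0.0246. Over the alternatives of processing listed below, the value for Atf4 ran from -0.393 to 0.0108, with adjusted p from 0.0441 to 0.971 by edgeR or DESeq2. In the other 3 comparisons its log2 fold change lay between -0.14 and 0.01, a size at which scaling by library size alone turned the sign to positive in Cyp2b-null females (0.15) and WT males (0.24), as it did in Cyp2b-null males (0.01). Relative to the median of all genes under that scaling, Atf4 stood at 0.01 in WT females, -0.13 in Cyp2b-null females, -0.13 in WT males and -0.35 in Cyp2b-null males.

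Ddit3 encodes CHOP, the factor that links prolonged ER stress to cell death. In Cyp2b-null females it had 9.71, 10.4, 10.5 and 10.8 CPM on ND and 12.7, 15.8, 26.3 and 19.8 CPM on CDAHFD. These groups did not overlap, and the log2 fold change was 0.85 ± 0.22 (SE, adjusted p = 0.00627 by edgeR). In WT females, where the CDAHFD libraries ran from 10.0 to 19.2 CPM and the ND libraries from 9.87 to 13.9 CPM, the log2 fold change was 0.40 with an adjusted p of 0.221. Over the alternatives of processing it ran from 0.365 to 0.717, with adjusted p from 0.0162 to 0.341 by edgeR or DESeq2. The diet effect in females differed between the genotypes by 0.46 ± 0.32 (SE, adjusted p = 0.783 by edgeR), which did not pass the threshold. In males the groups overlapped widely, from 6.01 to 17.4 CPM, and the log2 fold changes were -0.02 (WT) and 0.17 (Cyp2b-null), with adjusted p of 0.966 and 0.680. Ddit3 overlaps Mbd6 and Mars1 on the genome (chr10:127290793-127296291), and since counting by strand is not stated, reads of these genes may be shared.

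Atf3, a stress-induced repressor and activator of transcription that is nearly silent in resting liver, had the steepest rise of the 10. In WT females it had 1.0, 0.779, 1.69 and 1.56 CPM on ND and 23.0, 25.2, 22.5 and 26.7 CPM on CDAHFD. In Cyp2b-null females the values were 1.21, 2.003, 1.56 and 2.87 CPM on ND and 24.4, 23.8, 22.9 and 25.7 CPM on CDAHFD. The 8 CDAHFD females thus fell in a span of a few CPM, well apart from all 8 ND females. In WT males Atf3 had 0.905, 0.325, 0.539 and 0 CPM on ND and 16.2, 27.4, 32.01 and 20.1 CPM on CDAHFD, and in Cyp2b-null males 0.765, 0.447, 1.86 and 0.436 CPM on ND and 19.8, 25.3, 31.2 and 17.8 CPM on CDAHFD. The fold change was 18.6 in WT females, 11.7 in Cyp2b-null females, 50.1 in WT males and 26.7 in Cyp2b-null males (adjusted p by edgeR from 8.97e-11 to 5.34e-09). The larger folds in males came with lower ND levels, 0.442 and 0.878 CPM on average against 1.26 and 1.91 CPM in females, while the CDAHFD means were 23.5 to 24.4 CPM in all 4 groups. The difference in the Atf3 diet effect between the sexes, male minus female, was 1.44 in WT mice (adjusted p = 0.343 by edgeR) and 1.21 in Cyp2b-null mice (adjusted p = 0.171), which did not pass the threshold.

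Trib3, a pseudokinase that ATF4 and CHOP raise and that restrains them in turn, also separated the diets, at higher ND levels than Atf3. Its ND libraries ran from 5.36 to 16.7 CPM and its CDAHFD libraries from 24.1 to 67.2 CPM over both sexes and genotypes, with no overlap between diets. Log2 fold changes were 1.52 ± 0.23 (SE) in WT females, 1.66 ± 0.23 in Cyp2b-null females, 1.96 ± 0.32 in WT males and 2.10 ± 0.32 in Cyp2b-null males (adjusted p by edgeR from 1.64e-05 to 7.73e-05). CDAHFD-fed Cyp2b-null male replicate 2, at 67.2 CPM, stood above the other 3 of its group (27.1 to 28.9 CPM), and the log2 fold change without it was 1.65. Over the 8 group means of log2 CPM, the Trib3 profile had a Pearson r of 0.992 with that of Atf3, and 1453 of 13870 genes exceeded 0.9.

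Psat1 encodes phosphoserine aminotransferase, an enzyme of serine synthesis. In WT females it had 1.0, 1.56, 1.36 and 0.173 CPM on ND and 4.68, 5.58, 5.94 and 8.06 CPM on CDAHFD, and in Cyp2b-null females 0.303, 0.801, 0.390 and 0.844 CPM on ND and 6.23, 1.97, 3.25 and 8.33 CPM on CDAHFD. In WT males it had 1.09, 0.975, 0.673 and 0.215 CPM on ND and 8.96, 14.7, 7.71 and 21.3 CPM on CDAHFD, and in Cyp2b-null males 0.765, 0.447, 1.86 and 2.18 CPM on ND and 6.48, 21.2, 9.79 and 13.3 CPM on CDAHFD. No ND library reached a CDAHFD library of its own sex and genotype. The log2 fold changes were 2.75 ± 0.51 (SE), 2.90 ± 0.53, 4.08 ± 0.50 and 3.34 ± 0.47 in the same order, with adjusted p by edgeR from 2.30e-06 to 3.80e-04. The rise was called in each of the 16 fits per comparison that left out 1 library.

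Asns encodes asparagine synthetase, a classic target of ATF4 under amino acid shortage. In WT females it had 0, 0, 0.678 and 0.346 CPM on ND, which were 0, 0, 2 and 2 counts, and 2.45, 1.46, 4.51 and 2.42 CPM on CDAHFD. In Cyp2b-null females it had 0, 1.001, 0.780 and 1.18 CPM on ND and 2.60, 1.97, 1.80 and 2.36 CPM on CDAHFD. Both genotypes separated by diet with no overlap, at very low levels. The fitted log2 fold change was 3.34 ± 0.67 (SE, adjusted p = 8.58e-04 by edgeR) in WT females, a value that rests on 4 counts in the ND group, and 1.39 ± 0.54 (adjusted p = 0.0548) in Cyp2b-null females, which did not pass the threshold. With DESeq2 the adjusted p in Cyp2b-null females was 0.0442. The difference between the genotypes, -1.95 ± 0.94, had an adjusted p of 0.760.

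Male livers held far more Asns mRNA. In WT males Asns had 18.6, 2.60, 4.31 and 1.502 CPM on ND and 27.4, 17.6, 21.2 and 25.5 CPM on CDAHFD. The first ND library, with 103 counts, lay inside the CDAHFD range, and the other 3 lay far below it. In Cyp2b-null males Asns had 0.984, 5.59, 5.18 and 5.23 CPM on ND and 8.86, 23.6, 13.4 and 20.8 CPM on CDAHFD, with no overlap. The log2 fold change was 1.76 ± 0.50 (SE, adjusted p = 0.00961 by edgeR) in WT males and 2.08 ± 0.55 (adjusted p = 0.00468) in Cyp2b-null males. Without ND-fed WT male replicate 1 the value in WT males was 2.96 (adjusted p = 3.41e-05).

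The level itself was then compared between males and females of the same diet and genotype in 1 fit of all 32 libraries, a comparison added after the counts of Asns had been seen. Since each sex has its own table, sex and any difference in how the tables were made cannot be told apart. Asns was higher in males in all 4 groups, with male over female log2 fold changes of 4.69 ± 0.88 (SE) in ND-fed WT, 3.12 ± 0.51 in CDAHFD-fed WT, 2.28 ± 0.75 in ND-fed Cyp2b-null and 2.99 ± 0.51 in CDAHFD-fed Cyp2b-null mice (adjusted p by edgeR from 1.49e-04 to 0.0383). Without ND-fed WT male replicate 1 the value in ND-fed WT mice was 3.495 (adjusted p = 0.00242). The call in ND-fed Cyp2b-null mice was lost in 7 fits that left out 1 library (adjusted p from 0.0615 to 0.102), namely any 1 of the 4 ND-fed Cyp2b-null females or ND-fed Cyp2b-null male replicates 2, 3 or 4. Psat1 was higher in CDAHFD-fed males, by 1.15 in WT (adjusted p = 0.0451) and 1.41 in Cyp2b-null mice (adjusted p = 0.00954). The Psat1 call in WT mice was lost by library size alone (adjusted p = 0.0715) and in 8 fits that left out 1 library (0.82 to 1.33, adjusted p from 0.0503 to 0.186), namely any 1 of the 4 CDAHFD-fed WT females, ND-fed Cyp2b-null female replicate 2, CDAHFD-fed WT male replicates 2 or 4, or CDAHFD-fed Cyp2b-null male replicate 4. The Psat1 call in Cyp2b-null mice was lost with the libraries of the heat maps (adjusted p = 0.0795) and without CDAHFD-fed Cyp2b-null male replicate 2 (1.03, adjusted p = 0.065). In ND-fed Cyp2b-null mice, Gdf15 (-1.91, adjusted p = 0.00187) and Chac1 (-1.33, adjusted p = 0.0464) were lower in males. In all, 1 of the 10 genes differed by sex in ND-fed WT mice (all genes 17.8%), 2 in CDAHFD-fed WT (all genes 11%), 3 in ND-fed Cyp2b-null (all genes 13.3%) and 2 in CDAHFD-fed Cyp2b-null mice (all genes 18.1%). The count was below the share of all genes in ND-fed WT mice and near it in CDAHFD-fed Cyp2b-null mice. It was above that share in CDAHFD-fed WT and ND-fed Cyp2b-null mice, and these differences from the shares were not tested. The sex difference of the diet effect was called for 0 of the 10 genes in WT mice (all genes 0.97%) and 0 in Cyp2b-null mice (all genes 3.4%), where 1 and 2 of them had an unadjusted p under 0.05 and DESeq2 called 0 in each.

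Chac1, which degrades glutathione, and Sesn2, which restrains mTORC1 signalling when amino acids are short, moved less. In WT males Chac1 had 5.07, 2.11, 1.89 and 1.502 CPM on ND and 4.48, 6.34, 6.91 and 3.67 CPM on CDAHFD, overlapping through the first ND library (log2 fold change 1.03 ± 0.35 (SE), adjusted p = 0.0273 by edgeR). In Cyp2b-null males it had 1.42, 1.57, 3.31 and 2.62 CPM on ND and 4.75, 4.92, 5.92 and 5.25 CPM on CDAHFD with no overlap (log2 fold change 1.27 ± 0.36, adjusted p = 0.00782). In females Chac1 ran from 1.40 to 7.89 CPM on ND and from 2.01 to 9.20 CPM on CDAHFD, and its log2 fold changes of 0.47 (adjusted p = 0.538) and 0.18 (adjusted p = 0.783) were no larger than the spread between libraries.

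Sesn2 was within 7.24 to 10.3 CPM in ND-fed and 10.5 to 16.4 CPM in CDAHFD-fed WT males, a log2 fold change of 0.53 ± 0.20 (SE, adjusted p = 0.0478 by edgeR). In Cyp2b-null males it was within 4.36 to 8.05 CPM on ND and 9.62 to 12.7 CPM on CDAHFD, a log2 fold change of 0.73 ± 0.21 (adjusted p = 0.00797). The diets did not overlap in either male genotype, while in females they did, with log2 fold changes of 0.18 (adjusted p = 0.705) and 0.35 (adjusted p = 0.383). The Sesn2 call in WT males was lost in 11 of the 16 fits that left out 1 library, with adjusted p from 0.0503 to 0.150, namely without ND-fed WT male replicates 1 or 2, CDAHFD-fed WT male replicates 1, 2 or 3, ND-fed Cyp2b-null male replicates 1, 2 or 3, or CDAHFD-fed Cyp2b-null male replicates 1, 3 or 4. The Chac1 call in WT males was lost without ND-fed WT male replicates 2 (adjusted p = 0.0695), 3 (0.0860) or 4 (0.0782) and without CDAHFD-fed WT male replicates 2 (0.0653) or 3 (0.105).

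Fgf21, a hormone that the liver secretes during fasting, protein restriction and stress, rose 9.66-fold in WT females and 7.65-fold in WT males. In WT females it had 1.80, 2.34, 0 and 0.346 CPM on ND and 11.8, 7.03, 8.40 and 14.0 CPM on CDAHFD, groups that stood far apart (log2 fold change 3.27 ± 0.69 (SE), adjusted p = 0.00126 by edgeR). In WT males it had 0.905, 0.325, 1.21 and 2.15 CPM on ND and 12.7, 6.34, 10.2 and 4.89 CPM on CDAHFD, again with no overlap (log2 fold change 2.94 ± 0.70, adjusted p = 0.00253).

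The ND-fed Cyp2b-null livers were uneven in Fgf21. Females had 0.607, 5.21, 1.17 and 11.3 CPM on ND and 8.57, 9.37, 9.38 and 22.6 CPM on CDAHFD, and males had 0.328, 3.13, 0.828 and 8.94 CPM on ND and 2.37, 10.9, 4.60 and 7.48 CPM on CDAHFD. Replicate 4 of each ND group, with 67 counts in the female and 41 in the male, reached into the CDAHFD range. The log2 fold change was 1.28 ± 0.50 (SE, adjusted p = 0.0585 by edgeR) in females and 1.07 ± 0.62 (adjusted p = 0.190) in males, neither past the threshold. Without ND-fed Cyp2b-null female replicate 4 it was 2.24 (adjusted p = 0.00542), and without ND-fed Cyp2b-null male replicate 4 it was 2.35 (adjusted p = 0.00662). Other libraries moved it the other way. Without CDAHFD-fed Cyp2b-null female replicate 4, at 22.6 CPM, it was 0.81 (adjusted p = 0.263), and in males it was 0.57 without ND-fed Cyp2b-null replicate 1, with adjusted p up to 0.506 without CDAHFD-fed Cyp2b-null replicate 2. With the replicate block the female value was 1.41 (adjusted p = 0.0242). The call also depended on the processing in both sexes. Over the alternatives of processing, the female value ran from 1.22 to 1.57, with adjusted p from 5.14e-05 to 0.163 by edgeR or DESeq2. The male value ran from 0.964 to 1.42, with adjusted p from 0.00503 to 0.368. The diet by genotype interaction of Fgf21 was -1.99 ± 0.89 in females (adjusted p = 0.760) and -1.87 ± 0.96 in males (adjusted p = 0.830), neither past the threshold. Without the filter on low counts both were called (-2.02, adjusted p = 0.0088 in females and -1.86, adjusted p = 0.0409 in males). That setting raised the interaction calls over all genes too. In females 26 were higher and 20 lower of 25490 genes, against 0 and 0 with the filter. In males 37 were higher and 58 lower of 25760, against 0 and 1.

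Gdf15, a hormone that signals stress to the brainstem and lowers appetite, was present on ND and rose 1.94- to 4.67-fold. In WT females it had 12.0, 11.7, 7.46 and 9.004 CPM on ND and 10.9, 22.3, 17.0 and 27.4 CPM on CDAHFD, and in Cyp2b-null females 6.68, 17.4, 14.4 and 3.71 CPM on ND and 20.5, 20.5, 25.6 and 24.8 CPM on CDAHFD. The Cyp2b-null groups did not overlap, and in WT females 1 CDAHFD library lay among the ND libraries. The log2 fold change was 0.96 ± 0.34 (SE, adjusted p = 0.0424 by edgeR) in WT females and 1.15 ± 0.33 (adjusted p = 0.0119) in Cyp2b-null females. The call in WT females was lost in 8 of the 16 fits that left out 1 library, with log2 fold changes from 0.73 to 1.07 and adjusted p from 0.0501 to 0.169, namely without any 1 of the 4 ND-fed WT females, without CDAHFD-fed WT female replicates 2, 3 or 4, or without CDAHFD-fed Cyp2b-null female replicate 2.

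In males the Gdf15 diets were apart in both genotypes. WT males had 9.96, 3.58, 7.14 and 10.1 CPM on ND and 14.9, 14.5, 17.8 and 11.5 CPM on CDAHFD (log2 fold change 0.96 ± 0.31 (SE), adjusted p = 0.0201 by edgeR). Cyp2b-null males had 1.53, 1.57, 2.69 and 5.45 CPM on ND and 8.22, 14.9, 13.2 and 13.7 CPM on CDAHFD (log2 fold change 2.22 ± 0.35, adjusted p = 3.86e-05). The larger fold in Cyp2b-null males came from a lower ND level, and the interaction of 1.27 ± 0.47 had an adjusted p of 0.699. The call in WT males was lost without ND-fed WT male replicate 2 (0.72, adjusted p = 0.0656) and without CDAHFD-fed WT male replicate 3 (0.84, adjusted p = 0.0700).

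The genotype comparison called 0 of the 10 genes in ND-fed females (all genes 0.0756%), 0 in CDAHFD-fed females (0.0227%), 0 in ND-fed males (0.0371%) and 0 in CDAHFD-fed males (0.0297%). The interaction of diet and genotype also called 0 of them in females (all genes 0%) and 0 in males (all genes 0.00743%). The libraries of the genotypes did not overlap for 0 of the 10 genes in each case, where this held for 3.64% of all genes in ND-fed females, 2.83% in CDAHFD-fed females, 3.87% in ND-fed males and 2.56% in CDAHFD-fed males. An unadjusted p under 0.05 was reached by 1, 0, 1 and 0 of the genes in the genotype comparisons and by 2 and 1 in the interactions. The gene in ND-fed females was Fgf21, higher in Cyp2b-null mice by 2.28 ± 0.75 on the log2 scale (adjusted p = 0.611 by edgeR), and the one in ND-fed males was Gdf15, lower in Cyp2b-null mice at -1.50 ± 0.37 (adjusted p = 0.145). Gdf15 in ND-fed males passed the threshold with DESeq2 (-1.49, adjusted p = 0.0146), without ND-fed WT male replicate 2 (-1.745, adjusted p = 0.0376) and without ND-fed Cyp2b-null male replicate 4 (-2.01, adjusted p = 0.0353), so that call depends on the test and on single libraries. DESeq2 called 0 of the 10 genes in the other genotype comparisons and in the interactions. Without the filter on low counts, Fgf21 in ND-fed females (2.32, adjusted p = 1.19e-06) and Gdf15 in ND-fed males (-1.50, adjusted p = 5.04e-05) were called. Over all genes that setting called 50 higher and 72 lower in ND-fed females, against 2 and 8 with the filter. In ND-fed males it called 72 higher and 98 lower, against 1 and 4.

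**Figure D3:**
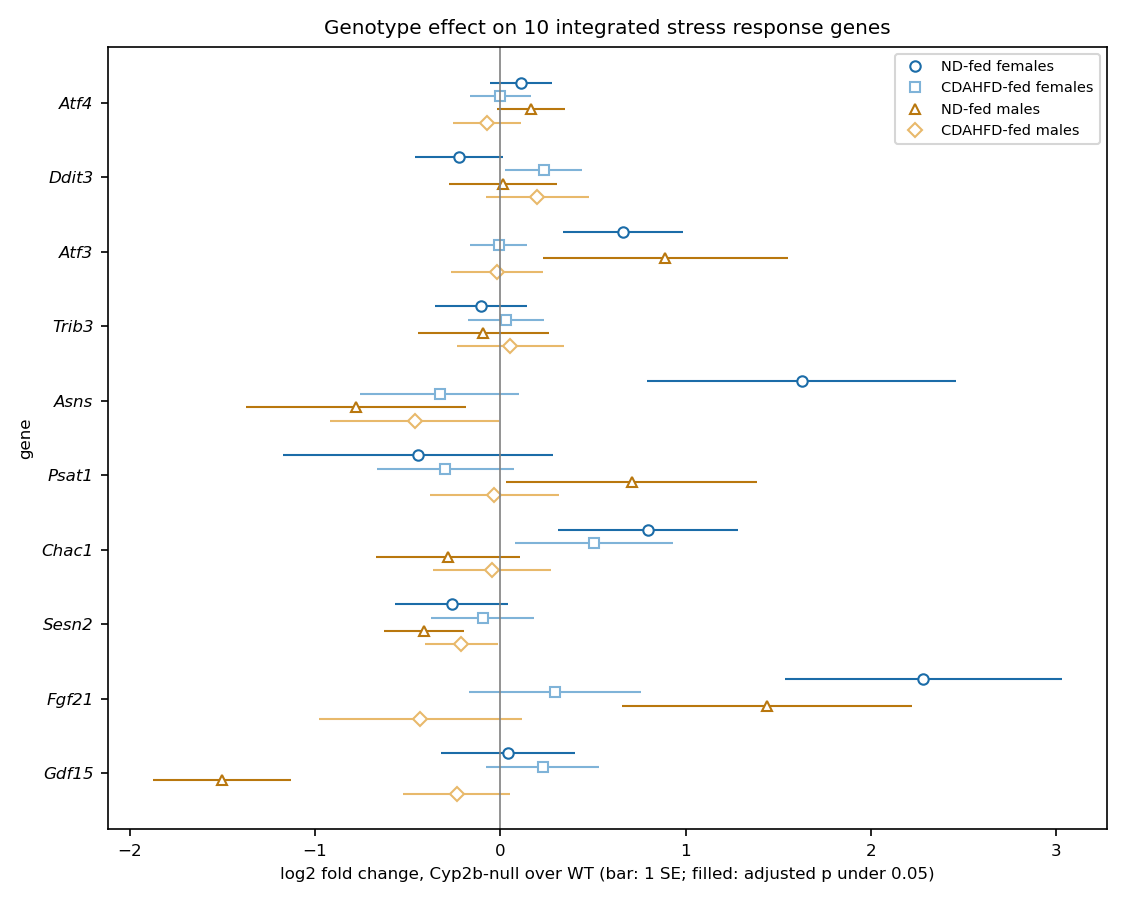
Log2 fold change of each gene, Cyp2b-null over WT, with bars of 1 SE, in ND-fed and CDAHFD-fed females and males, with every symbol open since no adjusted p was under 0.05. Fgf21 (2.28) and Asns (1.63) in ND-fed females and Gdf15 in ND-fed males (-1.50) stand well away from 0, with Fgf21 farthest.

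The genotypes lay closer together on CDAHFD than on ND for Fgf21 and Asns in females, though this difference was not past the threshold. The SE of the genotype difference in CDAHFD-fed females was 0.16 for Atf3 (difference -0.01), 0.21 for Trib3 (0.03) and 0.31 for Gdf15 (0.23), and it was 0.46 for Fgf21 (0.29) and 0.43 for Asns (-0.33), whose libraries were more scattered.

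Whether livers with more of one member also had more of another was asked within groups, by correlating deviations of log2 CPM from the group mean over the 16 libraries of each sex. The deviations share the scaling of their library. Of 90 pairs, 45 in each sex, 0 passed an adjusted p of 0.05 (permutation test within groups, two-sided, Benjamini-Hochberg over the 90 pairs), and 11 had an unadjusted p under 0.05, 9 of them in males. Correlations were positive in 66 of the 90 pairs, with a median r of 0.09 in females and 0.28 in males. In males Ddit3 had an r of 0.73 with Gdf15 (rho = 0.62, permutation p = 0.00277, adjusted p = 0.0831) and 0.72 with Atf4 (rho = 0.77, permutation p = 0.00215, adjusted p = 0.0831). Fgf21 and Gdf15 had an r of 0.74 in males (rho = 0.66, permutation p = 0.0121, adjusted p = 0.214). Leaving out the 2 libraries farthest from the median of the first gene gave 0.64, 0.53 and 0.55 in that order. In females the smallest p was that of Atf4 with Sesn2, a negative relation (r = -0.74, rho = -0.77, permutation p = 0.00203, adjusted p = 0.0831, r = -0.69 without the 2 farthest libraries).

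Over the 8 group means, the genes whose log2 CPM profile was most like that of Fgf21 were C330027C09Rik (Pearson r = 0.989), Gm13657 (0.988) and Cep19 (0.985) among 13870 genes, of which 400 exceeded 0.9. Closest to Gdf15 were Timeless (0.975), Ano8 (0.973) and Cd207 (0.970), with 170 genes over 0.9. Closest to Atf3 were Matk (0.997), Anxa2 (0.997) and Arhgef2 (0.995), and closest to Atf4 were Gm3219 (0.990), Ggnbp1 (0.982) and Aldh2 (0.977). Among the members, the profile of Atf4 ran against that of Asns (r = -0.88) and of Sesn2 (-0.85). The points of each correlation are 8 groups that share the diets and sexes, so these are descriptions only.

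Related genes were counted beside the shares of all genes given above, 13.9% to 20.3% higher and 10.2% to 17.1% lower on CDAHFD. Of 14 genes that act before Atf4 (eIF2 kinases, eIF2 and eIF2B subunits and phosphatase regulators), 0 rose and 1 fell in WT females, 2 rose and 3 fell in Cyp2b-null females, and 2 rose and 2 fell in each male genotype, with medians between -0.05 and 0.04. Eif2ak3 (PERK, the kinase of ER stress) rose in WT males (0.59, adjusted p = 0.0232 by edgeR) and Cyp2b-null males (1.20, adjusted p = 9.52e-05), and the call in WT males was lost in 3 fits that left out 1 library (adjusted p up to 0.0772). Dnajc3, an inhibitor of that kinase, fell in Cyp2b-null females by 0.78 (adjusted p = 4.72e-04), in Cyp2b-null males by 0.57 (adjusted p = 0.00149) and in WT females by 0.45 (adjusted p = 0.0298), and was at -0.33 in WT males (adjusted p = 0.0553), where scaling by library size alone turned it to 0.05. The Dnajc3 call was also lost by library size alone in WT females (-0.14, adjusted p = 0.535) and Cyp2b-null males (-0.21, adjusted p = 0.151), and in WT females with only the groups compared (adjusted p = 0.0593) and in 4 fits that left out 1 library (adjusted p from 0.0603 to 0.13).

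Of the other amino acid synthesis and one-carbon targets of ATF4, 5 of 10 tested rose and 3 fell in WT females, 3 rose and 3 fell in Cyp2b-null females, 5 of 11 rose and 2 fell in WT males, and 6 rose and 2 fell in Cyp2b-null males. Mthfd1l, a mitochondrial one-carbon enzyme, and Pck2, mitochondrial phosphoenolpyruvate carboxykinase, rose in all 4 comparisons, by 1.09 to 3.85 and 1.5 to 2.24 on the log2 scale. Cth and Cbs, the enzymes that turn homocysteine into cysteine, fell in all 4, with log2 fold changes from -1.42 to -0.67 and from -0.85 to -0.55. In Cyp2b-null females the Cth call was lost by library size alone (-0.40, adjusted p = 0.216), with the replicate block (0.0599), with only the groups compared (0.0712), with the libraries of the heat maps (0.11) and in 5 fits that left out 1 library (adjusted p up to 0.26). The Cbs call was lost by library size alone in Cyp2b-null females (adjusted p = 0.0606) and WT males (0.242), and that of Mthfd1l in Cyp2b-null females without the filter on low counts (0.0737) and in 10 fits that left out 1 library (up to 0.132). Among 9 amino acid transporters 2, 4, 5 and 6 rose in WT females, Cyp2b-null females, WT males and Cyp2b-null males, and 1, 1, 0 and 0 fell. Slc7a11, the cystine importer, rose in all 4 comparisons by 3.94 to 6.4, and Slc1a5, a carrier of glutamine, rose by 1.14 to 3.07 in 3 of them and was at 0.93 in WT females (adjusted p = 0.0532 by edgeR). In a list of 13 aminoacyl-tRNA synthetase genes, which also holds the tRNA exporter Xpot, 1 to 3 rose and 1 to 3 fell. Gars was up by 0.51 to 0.84 and Tars was at -1.07 to -0.57, each called in all 4 comparisons, though Tars was not in WT females by library size alone (-0.25, adjusted p = 0.224). These synthetase counts were near the shares of all genes.

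**Figure D4:**
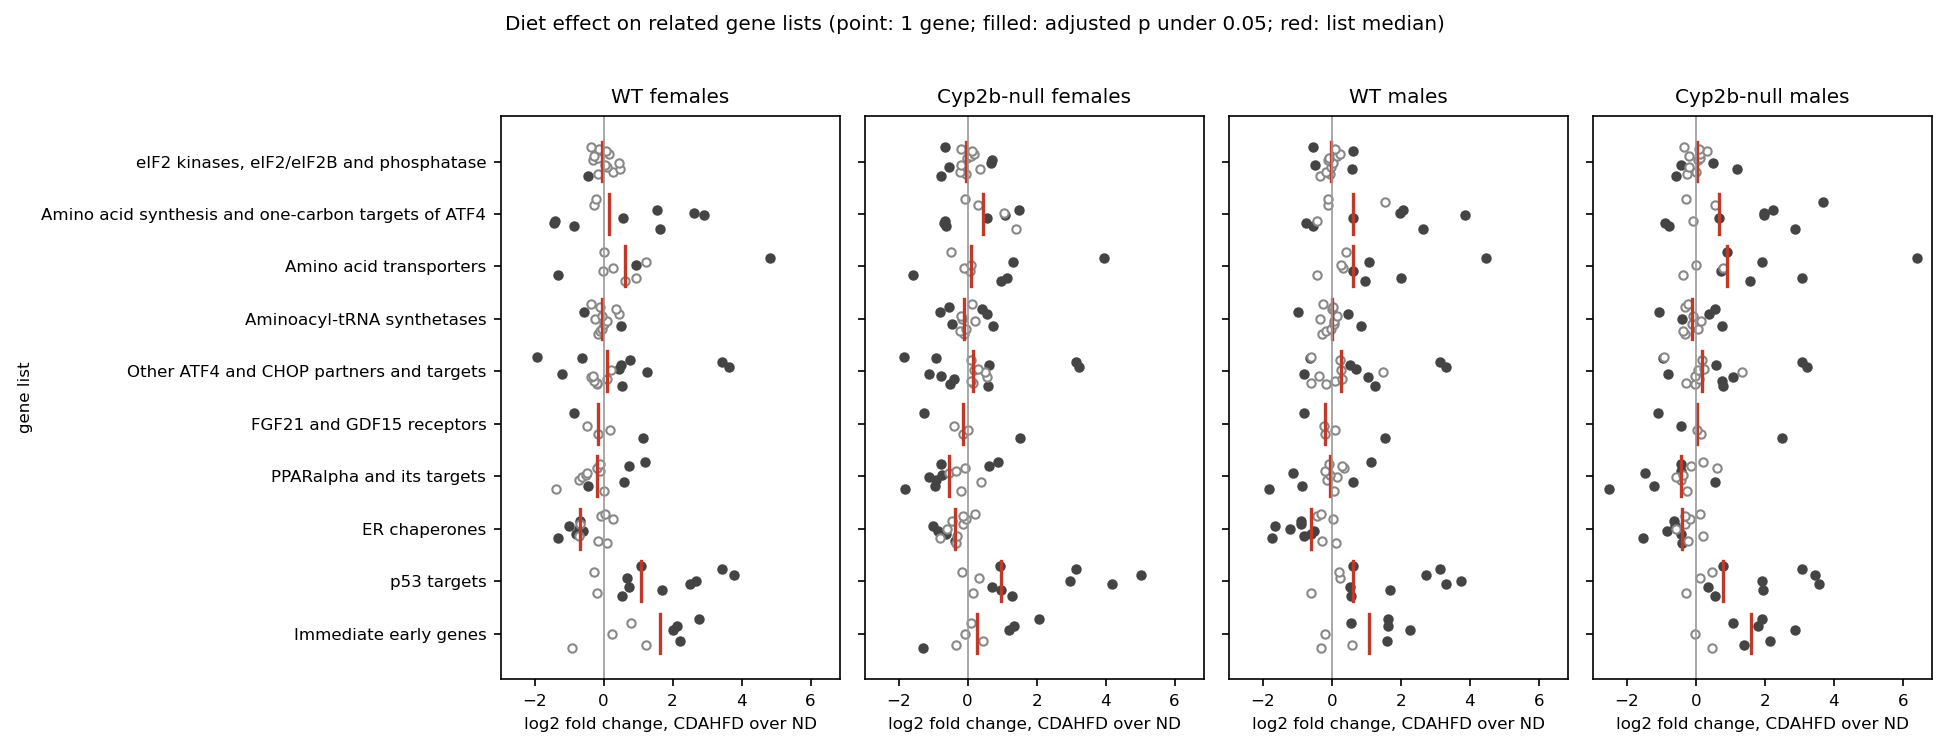
Log2 fold change, CDAHFD over ND, of each gene tested in 10 related lists (1 point per gene, filled where edgeR's adjusted p was under 0.05, red line at the list median) in the 4 diet comparisons. The p53 targets and immediate early genes lie mostly to the right of 0 and the genes of the ER chaperone list mostly to the left.

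Among 17 tested partners and other targets of ATF4 and CHOP, 7, 4, 6 and 6 rose and 3, 6, 2 and 2 fell, in the same order of comparisons, with medians of 0.10, 0.14, 0.27 and 0.18. Nupr1, a stress-induced coregulator, rose in all 4 by 3.21 to 3.64, and Tnfrsf10b, a death receptor that CHOP and p53 both raise, by 3.09 to 3.43. Herpud1, which serves ER-associated degradation, was at -1.20 to -0.80, and Vegfa at -0.96 to -0.63, each called lower in all 4. By library size alone Herpud1 was not called in WT males (adjusted p = 0.152) or Cyp2b-null males (0.112), nor Vegfa in WT females (0.233) or WT males (0.356). In a list of 13 ER chaperone genes, which also holds the transcription factor Xbp1 and the ER-associated degradation gene Edem1, 0 rose and 6, 4, 8 and 6 fell. The list medians were -0.67, -0.37, -0.61 and -0.41. Hyou1, Hsp90b1 and Edem1 fell in all 4 comparisons, Hsp90b1 by 0.52 to 0.87. The Hyou1 call in Cyp2b-null males was lost with the replicate block (adjusted p = 0.058), with the libraries of the heat maps (0.0827) and in 5 fits that left out 1 library (up to 0.13), and the Hsp90b1 call in WT males was lost in 5 such fits (up to 0.119). Under scaling by library size alone, 2, 1, 2 and 1 genes of the chaperone list were called higher and 1, 1, 4 and 2 lower, and the list median was -0.37, -0.11, -0.23 and -0.04, still below the median of all genes.

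Of 11 p53 targets 9, 8, 8 and 8 rose and 0 fell, with medians of 1.07, 0.97, 0.62 and 0.77, and Phlda3 (2.73 to 5.03), Cdkn1a (2.50 to 4.18) and Eda2r (1.91 to 3.73) rose in all 4 comparisons. Gdf15, Atf3 and Sesn2 are themselves known to respond to p53. Of 8 immediate early genes tested 4, 3, 5 and 6 rose and 0, 1, 0 and 0 fell, with Ier3 (1.19 to 2.86), Myc (1.64 to 2.75) and Jun (1.33 to 2.12) higher in all 4. PPARalpha, which drives Fgf21 in fasting, and its targets counted 3, 2, 2 and 1 higher and 1, 6, 3 and 5 lower of 13 tested. In this list Acot1 was at -2.53 to -1.37, called lower in all comparisons but WT females, and Vnn1 at 0.21 to 1.21, called higher in all but Cyp2b-null males. In Cyp2b-null females the Vnn1 call was lost with DESeq2 (adjusted p = 0.0848), with the libraries of the heat maps (0.0572) and in 12 fits that left out 1 library (up to 0.144), and the Acot1 call in 3 such fits (up to 0.081). Of 5 tested receptors for FGF21 and GDF15, Fgfr1 rose by 1.15 to 2.50 and Klb (beta-klotho, the co-receptor of FGF21 in hepatocytes) fell in all 4, at -1.26 to -0.82, though not past the threshold in WT males by library size alone (adjusted p = 0.0746). In the genotype and interaction comparisons 0 genes of these 10 lists were called in either sex.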

How the data were processed

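The authors' deposited tables hold raw counts per gene, 1 table for each sex with 16 libraries each. Per the labels and the study's methods, liver RNA was sequenced as read pairs, trimmed with Trimmomatic, aligned with GSNAP to GRCm38.p6 and counted with Subread featureCounts. Tool versions and the treatment of strand and of reads that map more than once are not given in the sources used here. Libraries were grouped by diet, genotype and sex from the labels, and 0 columns were unused. Separate mice per library are not stated beyond the labels, so p-values measure the spread between these libraries.

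Genes with low counts were dropped by filterByExpr (minimum count 10, minimum total 15). The rest were scaled with TMM factors and tested with edgeR 4.0.16 (glmQLFit and glmQLFTest, R 4.3.3) on the 4 groups of each sex. Sex comparisons used 1 fit of all 8 groups. A gene was called at a Benjamini-Hochberg adjusted p under 0.05. Log2 CPM for correlations had a prior count of 2 and 100000 permutations. The test was tried on simulated counts first. Alternatives were DESeq2 1.42.0, RLE factors, library size alone, no filter, at least 1 CPM in 4 libraries, only the groups compared, the replicate number as a block, the libraries of the study's heat maps, and each library left out.

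The members and lists were chosen with earlier results of these data known. All members are named. Related lists name genes called the same way in all 4 diet comparisons (at most 4, by median size of change) or else the 2 largest changes called at least once, and the 3 genes most like Fgf21, Gdf15, Atf3 and Atf4 are those with the highest r at a mean of at least 1 CPM. Markers of cell types and the deleted genes were given as checks. Endothelial markers were called lower for 2, 2, 1 and 0 and higher for 0, 0, 1 and 3 of 5 in the 4 diet comparisons, and lymphocyte markers higher for 0 and 1 of 2 tested in females and not tested in males. Each SE of a log2 fold change was taken from the edgeR test statistic and includes the estimated spread between libraries.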

Additional observations from a re-analysis of the deposited data

Results flagged for a closer look

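In 80 sets of 4 libraries (10 genes in 8 groups), 4 held a library far from the other 3 of its group, where chance gives about 1 in 20. Fgf21 was 22.6 CPM in CDAHFD-fed Cyp2b-null female replicate 4, against 8.57 to 9.38 CPM in the others. Trib3 was 67.2 CPM in CDAHFD-fed Cyp2b-null male replicate 2, against 27.1 to 28.9 CPM. Asns was 18.6 CPM in ND-fed WT male replicate 1, against 1.502 to 4.31 CPM, and 0.984 CPM in ND-fed Cyp2b-null male replicate 1, against 5.18 to 5.59 CPM. The libraries were kept in all comparisons, and why they stood apart was not tested.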

How the results depend on the processing

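Of the count results, 452 of 479 values under alternatives were within 1.5 times the main count. Without the filter on low counts, the number of members called was 1 in place of 0 in the genotype comparison of ND-fed females (Fgf21), the interaction in females (Fgf21) and in males (Fgf21), the genotype comparison of ND-fed males (Gdf15) and the sex difference in Cyp2b-null mice (Gdf15), and 5 in place of 2 for sex in CDAHFD-fed Cyp2b-null mice. In the genotype comparisons on ND and the interactions, leaving out the filter also raised the calls over all genes, as given above. DESeq2 called 1 (Gdf15) in ND-fed males. For sex, 0 in place of 1 were called in ND-fed WT mice with only the groups compared, 1 in place of 2 in CDAHFD-fed WT mice by library size alone, and 1 in place of 2 in CDAHFD-fed Cyp2b-null mice with the libraries of the heat maps. Leaving out each library in turn gave 5 to 6 members called in WT females, 5 to 6 in Cyp2b-null females, 5 to 8 in WT males, 7 to 8 in Cyp2b-null males and 0 to 1 for genotype in ND-fed males. For sex it gave 1 to 2 in ND-fed WT (2 without ND-fed WT male replicate 1), 1 to 2 in CDAHFD-fed WT (1 without CDAHFD-fed WT female replicates 1, 2 or 4, ND-fed Cyp2b-null female replicate 2, CDAHFD-fed WT male replicates 2 or 4, or CDAHFD-fed Cyp2b-null male replicate 4), 1 to 3 in ND-fed Cyp2b-null mice (1 without ND-fed Cyp2b-null female replicates 1, 2 or 4 or male replicates 2 or 4) and 2 to 3 in CDAHFD-fed Cyp2b-null mice. The cause of these changes was not tested.

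Signs turned for values that did not pass the threshold, the farthest from 0 being Atf4 in Cyp2b-null males (-0.38) and Dnajc3 in WT males (-0.33). Atf4 in WT females was -0.0019 with RLE factors, -0.0017 with DESeq2, -0.023 with no filter, -0.0015 with the 1 CPM filter and -0.0086 with the replicate block, and between -0.086 and 0.076 with 1 library left out. Atf4 in Cyp2b-null females was 0.15 and in WT males 0.24 and in Cyp2b-null males 0.011 by library size alone, and with 1 library left out it ran from -0.20 to 0.0058 in Cyp2b-null females and from -0.25 to 0.0035 in WT males. Chac1 in Cyp2b-null females was -0.055 with the libraries of the heat maps and from -0.055 to 0.37 with 1 left out. Ddit3 in WT males was 0.37 by library size alone and from -0.12 to 0.14 with 1 left out, and in Cyp2b-null males from -0.14 to 0.46. Sesn2 in WT females ran from -0.021 to 0.36, and Dnajc3 in WT males was 0.052 by library size alone.

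No pairing of mice by replicate number is stated, and the correlations given next cannot exclude one. Deviations of same-numbered libraries had correlations from -0.185 to 0.292 over 48 pairs of libraries, with 5 over 0.1. With the number as a replicate block, 5, 6, 7 and 7 members were called in WT females, Cyp2b-null females, WT males and Cyp2b-null males, and Gdf15 in WT females (adjusted p = 0.0568 by edgeR) and Sesn2 in WT males (0.069) were not. By library size alone, the calls over all genes in WT females went from 1838 higher and 1355 lower to 3910 and 491. With only the groups compared, Asns was dropped by the filter on low counts in WT females and in Cyp2b-null females, so it was not tested there. By Spearman's rho, 2 of the 3 genes nearest to Fgf21 were shared and 0 of those nearest to Gdf15, Atf3 and Atf4. Depth limits the genes under about 2 CPM, Asns in ND-fed females above all, where 0 to 2 counts stand behind a value in WT mice.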
